A study of Mus musculus with 2 samples.

Results

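The subject here is the set of nuclear genes that encode the subunits of the mitochondrial respiratory chain and of ATP synthase, measured in pancreatic islets. Members were taken by gene symbol: probe sets whose only symbol in the platform's annotation starts with Nduf, Cox4 to Cox8, Uqcr or Atp5, or is Sdha, Sdhb, Sdhc or Sdhd. The rule gave 179 of the 45101 probe sets on the array, for 90 of 18193 genes that have a probe set with a single symbol. Of these genes 82 encode subunits and 8 encode assembly factors of complex I, named Ndufaf. In the annotation 39 of the 90 genes had 1 probe set, and no gene had more than 6. A further 10 probe sets carried a matching symbol beside another gene's symbol and were left out.

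Islets were taken from male mice aged 6 weeks of 2 kinds. The transgenic mice overexpress miR-141 and miR-200c, which are microRNAs. The control mice are labelled Bl6 (C57Bl6 islets). The labels name beta cells as the source and islets as the tissue, and spell out neither the promoter that drives the transgene nor the number of mice behind a sample. Total RNA was extracted with Trizol, amplified, labelled with biotin and hybridised, with 1 array per group. No replicate error exists for any value, no p-value was computed, and higher or lower describes these 2 arrays. Differences are given as transgenic minus control on the log2 scale, so 0.58 is 1.5-fold and 1 is 2-fold.

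The respiratory chain moves electrons from NADH (complex I) and succinate (complex II) through coenzyme Q, complex III and cytochrome c to oxygen at complex IV. Complexes I, III and IV pump protons across the inner membrane, and ATP synthase, also called complex V, uses the return of those protons to make ATP. In beta cells this ATP couples glucose metabolism to insulin release, because it closes ATP-sensitive potassium channels. The nucleus encodes most of the subunits, and mitochondrial DNA encodes a small hydrophobic core. The microRNAs that define the transgenic group come from RefSeq (GRCm38.p6, minus strand), with the seed, bases 2 to 8, in capitals. Their seeds differ at 1 of 7 positions, and the seed is the stretch that pairs with target sites. No member was examined for such sites.
mmu-miR-141-3p, chr6:124717917-124717938: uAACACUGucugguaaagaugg
mmu-miR-200c-3p, chr6:124718324-124718346: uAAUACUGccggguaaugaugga

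The arrays were alike, with a median of 5.76 on each. Across all probe sets Pearson's correlation was 0.988, and probe sets are not replicates. The median, 5.76, was used as a floor: a gene counted as reaching it when at least 1 of its 2 values did. Genes of a list that are called measured have a probe set with a single symbol, at the floor or below it. Markers set the context of the tissue. Of 10 beta cell markers all reached the floor and 4 were higher in the transgenic sample, with a median difference of -0.042. These markers ran from -0.81 for Ucn3 to 0.49 for Abcc8. Of 12 measured macrophage markers 11 reached it, 10 of them higher in the transgenic sample (median 0.81), where 54.2% of all 12143 genes at the floor were higher, and the list's mean level was 8.12 against 7.48. Of 10 stellate and fibroblast markers 8 reached it, 7 of them higher (median 0.87, mean level 7.99 against 7.27). All 6 measured proliferation genes were at least 1.5-fold higher (median 1.37), as were 7.73% of all genes. Both red blood cell markers measured were below the floor on both arrays. Poly-A spike controls were higher on the transgenic array at 24 of 24 probe sets, by a median of 1.51, and the 3 probe sets for 18S rRNA had a median of -0.83. The part of these shifts in the values below was not tested. In a bulk sample, fewer cells of a type and less RNA per cell cannot be told apart.

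Most subunit genes differed between the arrays by less than 1.5-fold, and the differences leaned to the transgenic side. Of the 82 subunit genes 77 reached the floor. No subunit gene was 2-fold higher or 2-fold lower, where 2.51% and 0.511% of all 12143 genes at the floor were. At the 1.5-fold rule Ndufa4 alone was higher and none was lower, against 7.73% higher and 3.14% lower among all genes. Of the 77, 56 had a positive difference, or 72.7%, beside 54.2% of all genes. The median difference was 0.097, which is 1.07-fold, beside 0.029 for all genes. Differences ran from -0.28 to 0.76, and 70 of the 77 lay between -0.3 and 0.3. That is 90.9% of the subunit genes, beside 67.6% of all genes and 78.9% of genes whose mean of both arrays was at least 10.

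These genes are read at the upper end of the scale, where all genes differ less. The mean of both arrays was at least 10 for 70 of the 77 subunit genes, with a median of 11.47, whereas the median of all genes at the floor was 8.20. Among the 2012 genes with a mean of 10 or more, 2.24% were higher and 2.53% lower by 1.5-fold or more. Of the same genes 50.2% had a positive difference, with a median of 0.00080. Among the 70 subunit genes in that range 54 had one, or 77.1%, with a median of 0.102. A trend of difference on level, fitted over all probe sets, was 0.011 at a level of 11 and 0.017 at a level of 12. The lean of the subunit genes was thus larger than the general shift at their level. Without replicate arrays it cannot be set against an error.

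**Figure D1:**
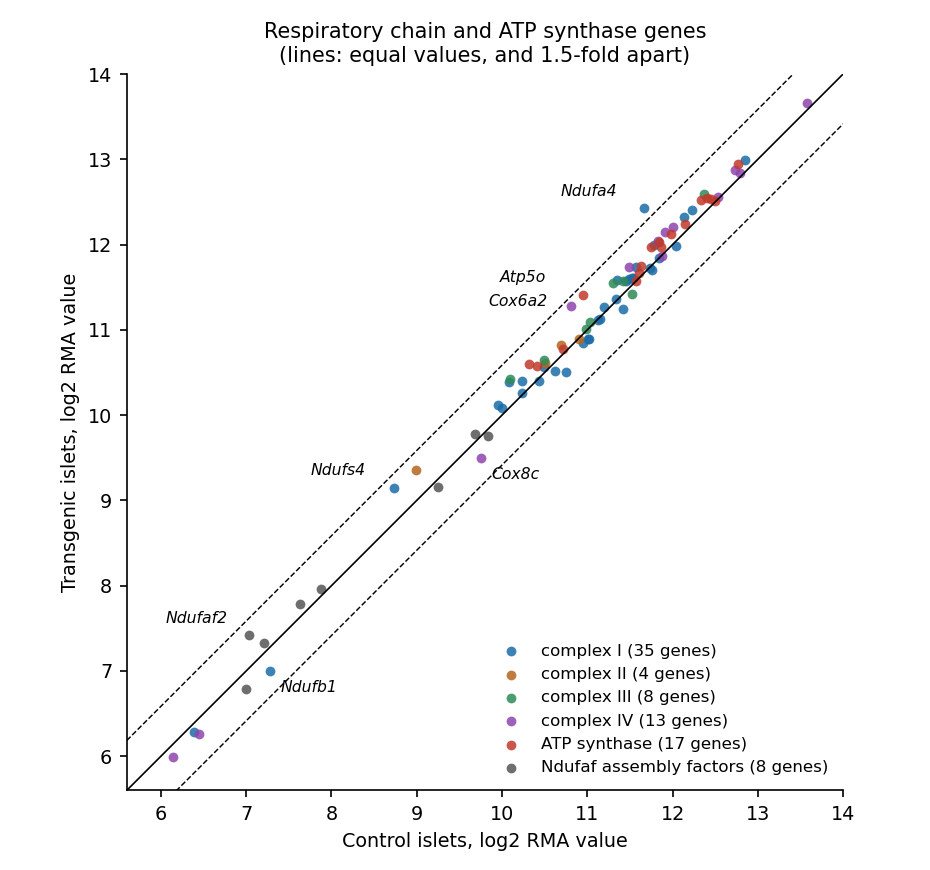
Log2 RMA value of 77 subunit genes and 8 Ndufaf genes in control islets (horizontal) and transgenic islets (vertical), 1 point per gene coloured by complex, with the line of equal values and dashed lines 1.5-fold apart. Points hug the line of equal values, and Ndufa4 at 11.66 and 12.43 is the point beyond a dashed line.

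**Figure D2:**
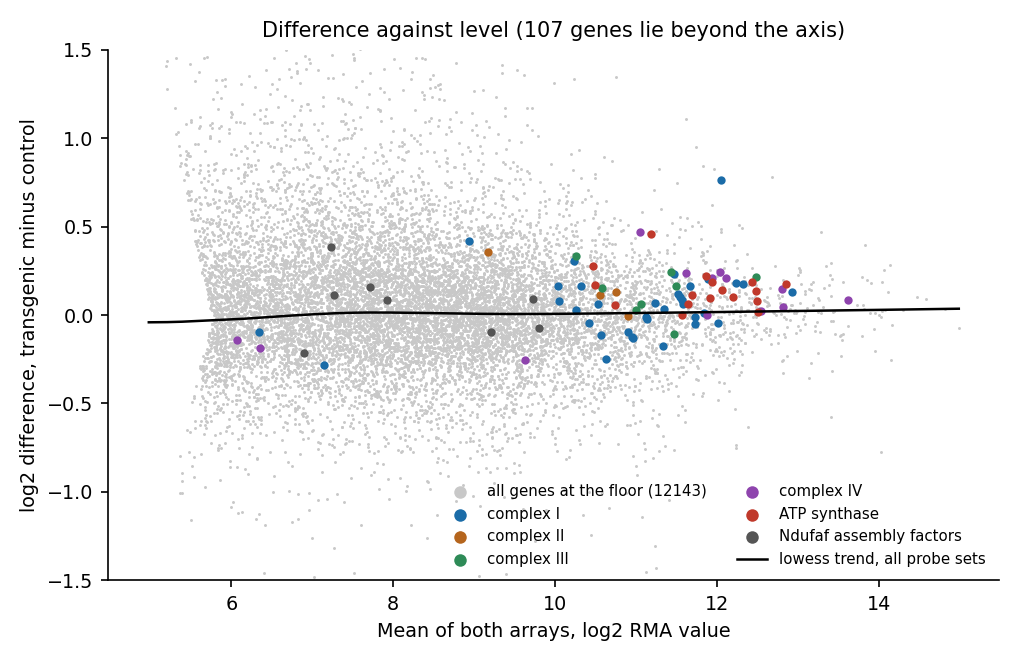
Transgenic minus control log2 difference against the mean log2 RMA value of both arrays, for all 12143 genes at the floor (grey) and for member genes (coloured by complex), with the lowess trend as a black line. Most members lie at means of 10 or more and above the trend; 107 genes lie beyond the axis limits of 1.5 in either direction.

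Complex I is the entry point for NADH and the largest complex of the chain. By gene symbol it held both the highest and the lowest subunit gene. Of its 36 genes 35 reached the floor, and 21 of these had a positive difference (60%, median 0.064), beside 54.2% of all genes. Ndufa4 read 12.43 in transgenic and 11.66 in control islets, a difference of 0.76 or 1.70-fold. It was named for complex I and is now counted with complex IV. The other complex I genes ran from -0.28 to 0.42, below Cox6a2 of complex IV (0.47) at the upper end. Ndufa4 is represented by 1 probe set, so no other probe set checks its value. Of the 2012 genes with a mean of 10 or more, 22 had a difference at or above that of Ndufa4. Its paralogue Ndufa4l2, which is induced by low oxygen in many cells, read 6.29 and 6.39, a difference of -0.10.

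The peripheral arm of complex I, which juts into the matrix and holds the flavin and the iron-sulfur clusters, showed no lean. Of its 14 genes 7 had a positive difference, and the median was 0.00071. The genes next to that median, Ndufa12 (0.011) and Ndufv1 (-0.0095), have probe sets of mixed sign, so the count depends on the probe set chosen. Ndufs4, an accessory subunit of the NADH-oxidising end, read 9.15 in transgenic and 8.73 in control islets (0.42). It has 3 other probe sets. Those at the floor gave 0.17 and 0.22, and 1 below it gave -0.18. Ndufa5, next to the quinone-reducing centre, read 10.38 and 10.08 (0.30), and its other probe set gave 0.21. The subunits that carry the cofactors lay on both sides of 0. Ndufv2, which holds an iron-sulfur cluster, read 11.61 and 11.54 (0.065), with 0.17 and 0.19 on its other probe sets. Ndufv1, which binds the flavin, read 11.11 and 11.12 (-0.0095), and Ndufs1, which holds iron-sulfur clusters, read 10.08 and 10.01 (0.08). Ndufs7, which carries the last cluster before coenzyme Q, read 10.52 and 10.63 (-0.11), and Ndufs8 read 11.71 and 11.76 (-0.05). Ndufs3 read 10.89 and 11.01 (-0.12). Ndufa7 read 11.25 and 11.42 (-0.17) on the probe set that stands for it, while its 4 others ran from -0.026 to 0.075.

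The membrane arm of complex I pumps protons. Of its 18 genes at the floor 12 had a positive difference (median 0.074). Ndufb7 read 11.58 in transgenic and 11.35 in control islets (0.23), with 0.33 on its other probe set. Ndufa3 read 11.99 and 11.79 (0.20), and its other probe set at the floor gave 0.24. On the other side, Ndufb1 read 7.00 and 7.28 (-0.28), and Ndufs5, on the outer face of the arm, read 10.51 and 10.76 (-0.25). A probe set shared by Ndufs5 and its pseudogene, left out by the rule, gave 0.0089. Ndufb6 read 10.89 and 11.02 (-0.13). Ndufb4 was below the floor on its single-symbol probe set. Probe sets shared by Ndufb4, Ndufb4b and Ndufb4c, left out by the rule, were well above it. They read 10.60 and 10.42 (0.18), and 10.54 and 10.48 (0.065). Ndufab1, the acyl carrier protein found in both arms, read 11.27 and 11.20 (0.071).

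The Ndufaf assembly factors, which build complex I without staying in it, were read lower on the scale than the subunits. All 8 reached the floor and none had a mean of 10 or more. Of these 5 had a positive difference, with a median of 0.086. Among the 6998 genes whose means fell within the range of the 8, 54.7% were positive and the median was 0.034. Ndufaf2, which acts late in assembly, read 7.42 in transgenic and 7.03 in control islets (0.39). Ndufaf6 read 7.79 and 7.63 (0.16) and Ndufaf1 7.33 and 7.21 (0.12). Ndufaf4 read 9.78 and 9.69 (0.09) and Ndufaf7 7.96 and 7.88 (0.08). Ndufaf8 read 9.76 and 9.83 (-0.07) and Ndufaf3 9.16 and 9.25 (-0.10). Ndufaf5 had the lowest difference of the 8, reading 6.79 and 7.00 (-0.21).

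Complex II, succinate dehydrogenase, also serves the citrate cycle. All 4 genes reached the floor and 3 had a positive difference (75%, median 0.12), beside 54.2% of all genes at the floor. The membrane anchor gene Sdhc read 9.35 in transgenic and 9.00 in control islets (0.36), but its other probe set gave 0.07. The other anchor gene, Sdhd, read 10.61 and 10.50 (0.11), and the iron-sulfur subunit gene Sdhb read 10.82 and 10.69 (0.13). Sdha, the flavin subunit, read 10.90 on both arrays (-0.0081). Of its 3 other probe sets 1 gave 0.041 and another, read at 6.17 and 6.85, gave -0.68. The remaining one was below the floor, at 3.36 and 3.81 (-0.45). The value of -0.68 was the only one of 156 member probe sets at the floor past the 1.5-fold rule on the lower side.

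Complex III passes electrons from coenzyme Q to cytochrome c. All 8 genes reached the floor and 7 had a positive difference (87.5%, median 0.16), beside 54.2% of all genes at the floor. Its core proteins had the furthest differences: Uqcrc1 read 10.43 in transgenic and 10.10 in control islets (0.33), and Uqcrc2 read 11.55 and 11.30 (0.24). The Rieske iron-sulfur protein gene Uqcrfs1 read 10.65 and 10.50 (0.15). Among the small subunits, Uqcrb read 12.59 and 12.37 (0.22), but its other probe set gave 0.024. Uqcrh read 11.58 and 11.41 (0.16), with 0.13 on its other probe set, and Uqcr11 read 11.01 and 10.98 (0.028). Uqcr10 read 11.09 and 11.03 (0.062) on the probe set that stands for it. Its 2 others gave 0.36 and 0.65, so the choice of probe set decides how far it stands out. Uqcrq read 11.42 and 11.53 (-0.11).

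Complex IV, cytochrome c oxidase, reduces oxygen. Of its 17 genes 13 reached the floor and 9 had a positive difference (69.2%, median 0.086), beside 54.2% of all genes at the floor. Of the 9 genes for subunits common to most tissues, 7 were positive. Cox4i1 read 12.15 in transgenic and 11.91 in control islets (0.24). Cox5a read 11.73 and 11.49 (0.24), and its 2 other probe sets gave 0.26 and 0.27. Cox6c read 12.04 and 11.83 (0.21). Cox8a read 11.87 on both arrays (-0.0026). Cox7c read 6.26 and 6.45 (-0.19), close to the floor. Cox7a2l, which takes part in joining complexes III and IV into supercomplexes, read 12.21 and 12.00 (0.21).

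Isoforms known from particular tissues were mostly at the bottom of the scale. Cox7a1 and Cox8b, of heart and muscle, and Cox6b2 and Cox7b2, of testis, were below the floor on both arrays. Cox4i2, of lung, read 6.00 in transgenic and 6.14 in control islets (-0.14), just above it. Cox6a2, the heart and muscle isoform of subunit VIa, was well above the floor, at 11.28 and 10.81 (0.47). Its other probe set gave 0.60, which is 1.51-fold. Cox8c, of testis, read 9.50 and 9.75 (-0.26), and its other probe set gave -0.11. Cox6a1, the common form of subunit VIa, read 13.66 and 13.57 (0.086), among the brightest members, where array signal can saturate.

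Nearly all genes of ATP synthase were higher in the transgenic sample. All 17 genes reached the floor and 16 had a positive difference (94.1%, median 0.135), beside 54.2% of all genes at the floor. In the catalytic head and central stalk all 5 genes were positive, from 0.097 to 0.22. Atp5a1, the alpha subunit, read 12.52 in transgenic and 12.33 in control islets (0.19), with -0.10 and 0.11 on its 2 other probe sets. Atp5b, the beta subunit, read 12.13 and 11.98 (0.14). Atp5c1, the gamma subunit that turns in the head, read 11.97 and 11.75 (0.22). In the peripheral stalk, which holds the head still, Atp5o read 11.41 and 10.95 (0.46), with 0.41 on its other probe set. Atp5pb read 12.54 and 12.41 (0.14), with 0.33 on its other probe set, and Atp5j read 11.67 and 11.61 (0.060). On the probe set that stands for it, Atp5h read 12.51 and 12.49 (0.017). That sign turned when the level trend was subtracted (-0.0024) or after a second quantile normalization (-0.023). The other probe set of Atp5h read 11.84 and 11.64 (0.20).

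The proton-driven ring of ATP synthase is built from copies of subunit c, which Atp5g1, Atp5g2 and Atp5g3 all encode with different import sequences. Atp5g3 read 12.94 in transgenic and 12.77 in control islets (0.17). Atp5g1 read 10.77 and 10.71 (0.056), and Atp5g2 read 11.57 on both arrays (-0.0019). The 5 small membrane subunits were all positive. Atp5mpl led them at 10.60 and 10.32 (0.28), and Atp5md read 10.58 and 10.41 (0.17). Atp5j2 read 12.53 and 12.46 (0.08), with 0.21 and -0.31 on its 2 others, so its sign depends on the probe set. Whether the share of positive genes differs between ATP synthase (16 of 17) and the peripheral arm of complex I (7 of 14) was not tested.

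**Figure D3:**
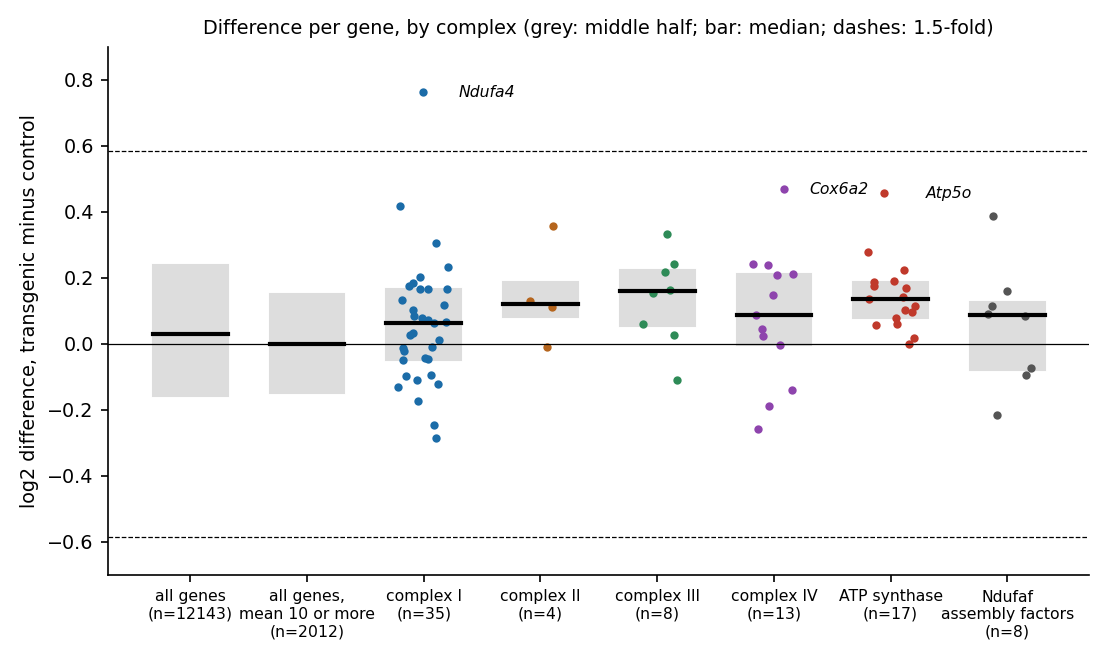
Transgenic minus control log2 difference per gene (points) for complexes I to IV, ATP synthase and Ndufaf factors, beside all 12143 genes at the floor and the 2012 with a mean of 10 or more. Grey boxes span the 25th to 75th percentile, black bars are medians and dashed lines mark 1.5-fold; all of ATP synthase but Atp5g2 lies above 0.

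Counting probe sets rather than genes kept the lean and changed the order of the complexes. Of the 179 member probe sets 156 reached the floor and 114 had a positive difference, or 73.1%, beside 51.8% of all 20548 such probe sets. At the 1.5-fold rule 3 were higher, of Ndufa4, Uqcr10 and Cox6a2, against 6.97% of all probe sets, and 1 was lower, of Sdha, against 4.15%. By complex, the positive probe sets were 42 of 69 for complex I, 6 of 8 for complex II and 12 of 13 for complex III. They were 23 of 28 for complex IV, 25 of 28 for ATP synthase and 6 of 10 for the Ndufaf genes. The median over probe sets was 0.034 for complex I, 0.056 for complex II and 0.165 for complex III. It was 0.154 for complex IV, above the 0.139 of ATP synthase, whereas over genes complex IV had the lower median of the pair. For the Ndufaf genes it was 0.054.

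The suffix of a probe set tells what its probes can match. Plain _at sets are designed for a single transcript, _a_at sets for several transcripts of a gene, and _s_at sets for transcripts that may come from several genes. Some probes of _x_at sets can match unrelated sequences. Among members at the floor, the 70 plain sets had a median difference of 0.064, with 47 positive. The 39 _a_at sets had a median of 0.133 (32 positive), the 19 _s_at sets 0.097 (14 positive) and the 28 _x_at sets 0.096 (21 positive). Over all single-symbol probe sets the medians were 0.0044 for plain, 0.041 for _a_at, 0.039 for _s_at and 0.0061 for _x_at. Members lay above their own class in each of the 4 classes.

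The classes differ in level as well. Of the plain member sets 26 had a mean under 10, against 3 of the _a_at, 4 of the _s_at and 8 of the _x_at sets. With a mean of 10 or more, the member medians were closer: 0.102 for 44 plain, 0.139 for 36 _a_at, 0.135 for 15 _s_at and 0.123 for 20 _x_at sets. The corresponding medians of all probe sets were -0.0028, 0.024, 0.019 and 0.015. Within genes that had both kinds at the floor, the plain sets averaged lower than the others in 22 of 37 genes. The median of plain minus other over all 37 was -0.036. The kinds also differed in level within genes, in both directions, so suffix and level are not separated there. Cox5b had a mean level of 6.04 on its plain set and 12.12 on the others, and Sdhd had 10.56 and 8.20. Over all genes the plain sets were lower in 1293 of 2500, and the median of plain minus other over the 2500 was -0.011.

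Where a gene has several probe sets, each gives a reading of its RNA, and whether the sets share probes was not examined. Their spread is not a replicate error. Of 46 member genes with 2 or more probe sets at the floor, 34 had a single sign, 30 of them positive and 4 negative. That is 73.9%, beside 58.2% of 5180 such genes in all. With probe sets of a mean of 10 or more the shares were closer, at 81.8% of 33 member genes and 72.8% of 482 genes. Mixed signs were found in 12 genes, among them Ndufb2 (-0.09, -0.29 and 0.008), Ndufc2 (-0.05, 0.15 and 0.16) and Ndufa12 (0.01, -0.04 and -0.08). The median width from the lowest to the highest difference of a gene was 0.089 for members and 0.28 for all genes. With probe sets of a mean of 10 or more, members had a median width of 0.076 over 33 genes and all genes 0.113 over 482. The 4 genes with a single negative sign were Ndufs7, Ndufb6, Cox8c and Ndufaf8. Sdha had the widest range, 0.72, set by the low probe set named above.

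**Figure D4:**
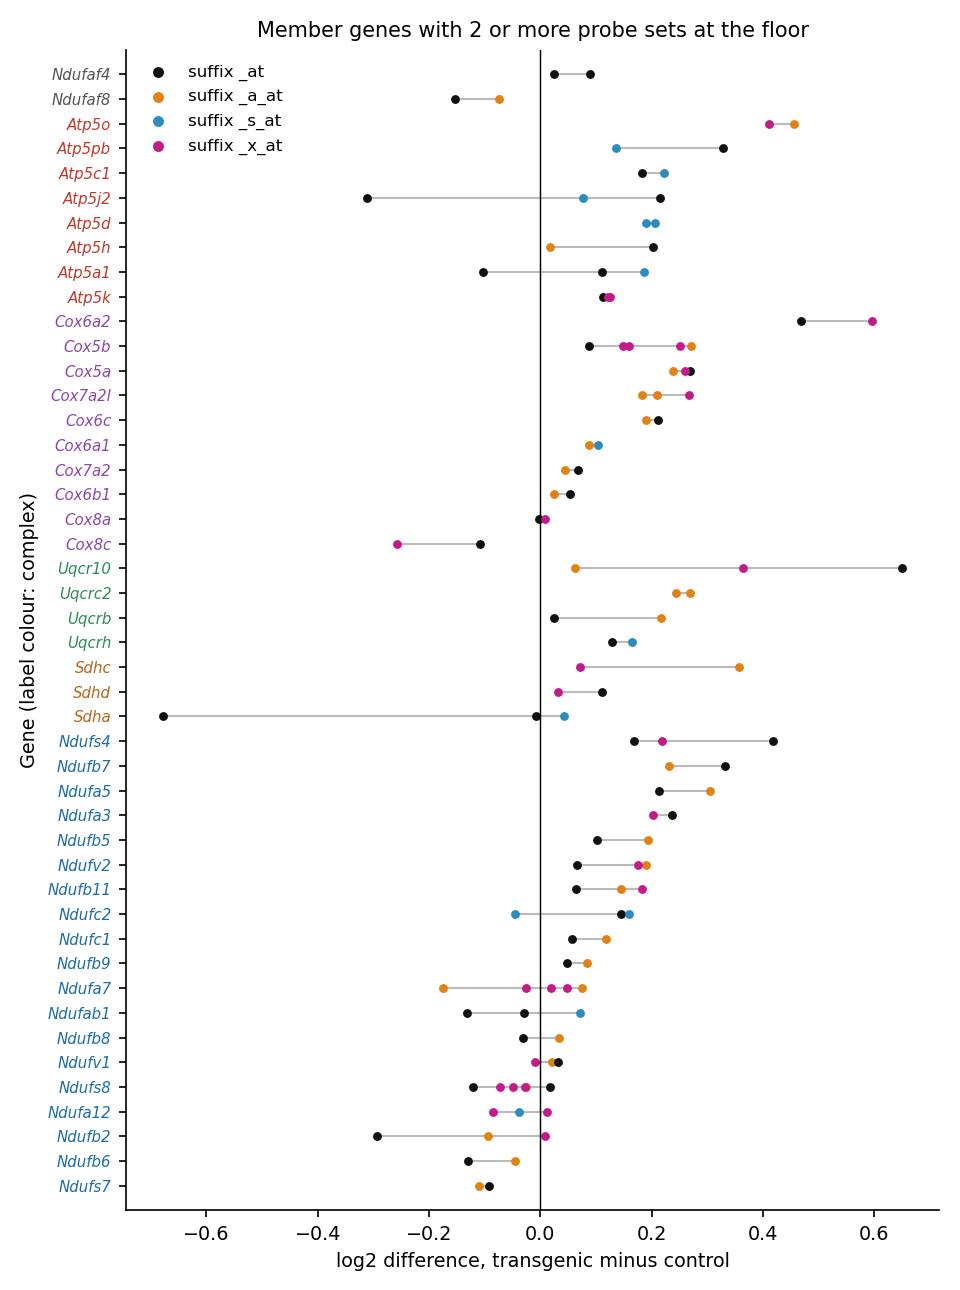
Transgenic minus control log2 difference of each probe set at the floor for the 46 member genes with 2 or more of them, 1 row per gene with its label coloured by complex and points coloured by probe set suffix. Most rows lie to the right of 0; the widest are Sdha, Uqcr10 and Atp5j2.

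Lists of genes that work with the complexes varied around the 54.2% of all genes with a positive difference. A list of electron carriers, the subunit gene Cyc1 and the ATP synthase inhibitor gene Atpif1 was positive in 6 of 6 genes (median 0.24). Etfb, part of the flavoprotein that feeds electrons from fat and amino acid breakdown to coenzyme Q, read 10.65 in transgenic and 10.01 in control islets (0.64). Its partners Etfdh, at 9.44 and 8.98 (0.45), and Etfa, at 9.80 and 9.48 (0.32), came next. Cycs, cytochrome c, read 12.16 and 11.99 (0.17), and Cyc1, a catalytic subunit of complex III that the symbol rule misses, read 10.56 and 10.55 (0.013). Coenzyme Q synthesis genes were positive in 10 of 12 (83.3%, median 0.19), led by Coq8a at 8.30 and 7.63 (0.67). Coq10b, at 10.15 and 10.53 (-0.38), was lowest. Of 13 mitochondrially encoded genes on the list ND5 alone was measured, at 13.56 and 13.26 (0.29).

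The remaining lists had medians on either side of 0. Assembly factors outside the Ndufaf group were positive in 15 of 34 genes (44.1%, median -0.039). Nubpl, which delivers iron-sulfur clusters to complex I, read 8.34 in transgenic and 7.77 in control islets (0.57). Atpaf1, which assembles the head of ATP synthase, read 7.57 and 8.02 (-0.45). Regulators of mitochondrial biogenesis and DNA were positive in 8 of 21 genes (38.1%, median -0.087). The coactivator Ppargc1a read 6.58 and 6.95 (-0.37), with -0.79 on its other probe set. The transcription factor gene Nrf1 read 7.96 and 8.05 (-0.087) and Gabpa 8.95 and 9.04 (-0.093), while Tfb1m read 7.73 and 7.34 (0.39).

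The citrate cycle was positive in 13 of 19 genes (68.4%, median 0.020). Dld, a subunit shared by the pyruvate and oxoglutarate dehydrogenases, read 9.38 in transgenic and 8.97 in control islets (0.41), and Idh2 read 9.05 and 9.58 (-0.53). Carrier and channel genes of the inner and outer membrane, with Gpd2, were positive in 9 of 14 (64.3%, median 0.118). Ucp2, the only uncoupling protein gene on that list, was not among those measured. Slc25a20, the carnitine carrier, read 9.89 and 9.12 (0.77), with 0.75 on its other probe set, and Slc25a4, an ATP/ADP carrier, read 11.57 and 11.93 (-0.36). Mitochondrial protein import genes were positive in 5 of 16 (31.2%, median -0.045). Tomm70a read 9.86 and 9.42 (0.44), with -0.23 to 0.25 on its 3 other probe sets. Tomm20 read 12.06 and 12.33 (-0.27), with -0.31 to 0.10 on its 5 others at the floor. The lists were not tested against each other.

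**Figure D5:**
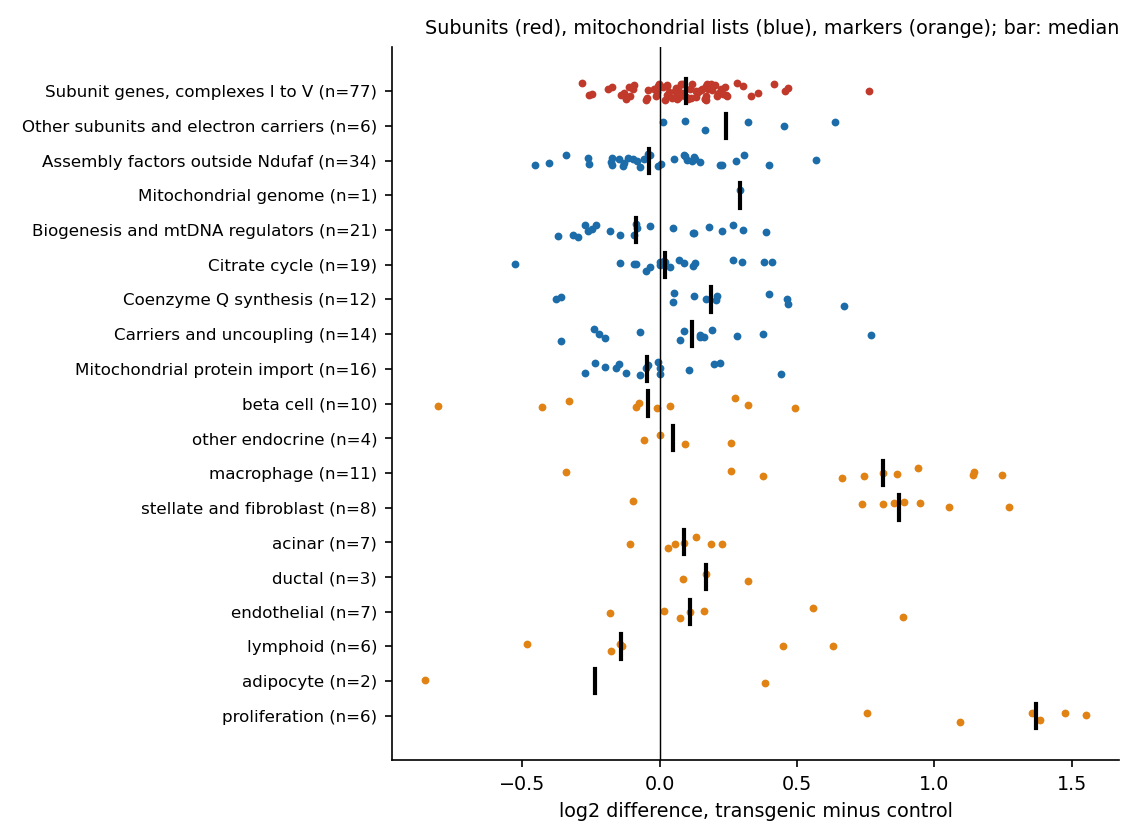
Transgenic minus control log2 difference of each gene at the floor for the subunits of complexes I to V (red), other mitochondrial lists (blue) and cell type and proliferation markers (orange), 1 row per list with its median as a bar. Subunits sit close to 0 with a median of 0.097, whereas macrophage, stellate and proliferation markers have medians of 0.81, 0.87 and 1.37.

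Promoters of respiratory chain genes are known for binding sites of NRF1, GABPA and other ETS factors, YY1 and the estrogen-related receptors (ERR). RefSeq windows of 300 bases, from 250 before to 50 after a start (GRCm38.p6), were found for 69 of the 85 member genes at the floor, as 74 windows. Motifs were searched on both strands, with no overlap required or excluded: GCGCNTGCG for NRF1, CCGGAAG for ETS, AAGATGGCG for YY1 and TCAAGGTCA for ERR. The NRF1 letters were in 24 of the 74 windows, or 32.4%, beside 12.7% of 12610 windows of all genes at the floor and 6.31% of all 32851 windows. The ETS letters were in 25.7%, beside 16.5% and 8.86%. The YY1 letters were in 7 windows, 9.46%, beside 2.82% and 1.40%. The ERR letters were in 2 windows, beside 0.278% and 0.423%. At least 1 of the 4 motifs was in 55.4% of member windows and in 28.5% of those of all genes at the floor.

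Differences of member genes with and without the letters are given as a description, with no test. The 23 member genes with an NRF1 match had a median difference of 0.089, with 17 positive, and the 46 without had 0.080, with 33 positive. The 19 with an ETS match and the 50 without both had medians of 0.086. For YY1 the medians were 0.077 in 7 genes with a match and 0.088 in 62 without. For ERR they were 0.143 in 2 genes and 0.083 in 67. The windows below are shown because Ndufa4 had the furthest difference and Atp5o and Ndufs5 were the highest and lowest subunit genes with an NRF1 match. Sdhd had matches to 3 of the 4 motifs. All lie on the minus strand of GRCm38.p6 and are written 5′ to 3′ along the gene, with matches in capitals. Ndufa4 has none, Atp5o and Ndufs5 have NRF1 matches, and Sdhd has NRF1, ETS and ERR matches.
Ndufa4 promoter, chr6:11907401-11907700: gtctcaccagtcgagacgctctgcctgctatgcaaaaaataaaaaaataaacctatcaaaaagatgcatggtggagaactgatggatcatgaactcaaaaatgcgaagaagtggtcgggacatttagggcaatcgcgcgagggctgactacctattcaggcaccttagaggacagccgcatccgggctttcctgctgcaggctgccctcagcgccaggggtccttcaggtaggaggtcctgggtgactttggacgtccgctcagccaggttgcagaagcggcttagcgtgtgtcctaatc
Atp5o promoter, chr16:91931581-91931880: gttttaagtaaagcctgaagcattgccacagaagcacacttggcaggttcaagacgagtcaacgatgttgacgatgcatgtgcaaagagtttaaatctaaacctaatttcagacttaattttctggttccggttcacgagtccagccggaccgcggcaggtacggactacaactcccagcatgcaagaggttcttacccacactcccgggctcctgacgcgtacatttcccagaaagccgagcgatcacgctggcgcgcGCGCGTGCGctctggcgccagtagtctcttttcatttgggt
Ndufs5 promoter, chr4:123718137-123718436: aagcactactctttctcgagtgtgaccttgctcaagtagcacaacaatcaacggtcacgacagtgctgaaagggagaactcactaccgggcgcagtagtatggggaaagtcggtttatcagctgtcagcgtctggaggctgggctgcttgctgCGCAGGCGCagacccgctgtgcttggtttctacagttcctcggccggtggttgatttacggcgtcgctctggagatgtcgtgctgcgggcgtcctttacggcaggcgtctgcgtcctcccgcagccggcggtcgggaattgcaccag
Sdhd promoter, chr9:50603800-50604099: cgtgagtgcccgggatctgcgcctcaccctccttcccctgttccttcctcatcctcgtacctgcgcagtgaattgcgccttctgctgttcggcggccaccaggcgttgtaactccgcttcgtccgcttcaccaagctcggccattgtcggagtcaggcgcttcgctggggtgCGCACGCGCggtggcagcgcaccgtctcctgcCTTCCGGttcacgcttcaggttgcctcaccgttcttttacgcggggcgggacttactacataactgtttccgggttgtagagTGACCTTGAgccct
A match is a run of letters and not a measured site.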

How the data were processed

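The authors deposited log2 values for each probe set. The submitters' processing notes name RMA and Affymetrix Expression Console, without versions. RMA corrects background, quantile normalizes and summarises probes, so it gives no detection call and compresses the ends of the scale. Genes were named from the platform's probe annotation, and symbols were updated by Entrez identifier to GRCm38.p6 names for 34741 of 34945 probe sets with a single symbol, which changed no member. A gene was represented by its brightest probe set, judged on the mean of the arrays. The floor of 5.76 is the median of all values. Groups follow the genotype label, and the number of arrays limits the precision. The named genes were the 4 highest and 4 lowest of each complex, or all where 8 or fewer reached the floor, genes with mixed probe sets, tissue isoforms and the c subunit genes, and other members were added with their values known. Arms and roles were assigned from general knowledge. Members and lists were chosen with earlier results of these data known. Alternatives were the mean over probe sets, plain _at sets only, other floors, a second quantile normalization, subtraction of a trend (lowess in statsmodels 0.14.6 with span 0.3), leaving out means above 13, updated symbols and a 2-fold rule. Summaries were checked on simulated data. Python 3.11.15, numpy 2.4.6 and pandas 2.3.3 were used.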

Additional observations from a re-analysis of the deposited data

How the results depend on the processing

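A median was counted as moved past 0.05, a tolerance about as large as the smaller medians. Within it, the median of complex I went from 0.064 to 0.032 with plain _at probe sets and to 0.037 after a second quantile normalization, which took that of the Ndufaf factors from 0.086 to 0.039. The median of the subunit genes stayed positive under every alternative, as did those of each complex and of the Ndufaf factors. With the floor at the 75th percentile the median of complex IV was 0.148 (11 genes) and that of the Ndufaf factors 0.0044 (4 genes). The count of subunit genes at least 1.5-fold higher was 2 with plain _at probe sets only (57 genes), and 0 under the 2-fold rule. Among 46 named genes, the mean over probe sets, which includes sets below the floor, moved 12 by more than 0.05. Uqcr10 went from 0.062 to 0.36, Ndufs4 from 0.42 to 0.16, Sdhc from 0.36 to 0.21 and Sdha from -0.0081 to -0.27. The same alternative turned the sign of Atp5g1 to -0.046. A second quantile normalization moved 5 of the named genes by more than 0.05. Atp5h turned to -0.0024 with the trend subtracted and to -0.023 after a second quantile normalization. Counting Ndufa4 and Ndufa4l2 in complex IV, and requiring a mean of 10 or more, were added after seeing the data and moved no median past 0.05. Single-array groups leave the size of every error unknown. No paired analysis was possible because each group has 1 sample.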
